A study of Mus musculus with 21 samples.

Results

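The forebrain transcription factor genes described here were Emx1, Emx2, Neurod6, Tbr1, Lhx2, Bcl11b, Dlx1 and Dlx2, 8 of the 24391 gene symbols in the count tables. They were chosen by symbol as factors of the cortex and of the ventral forebrain, and the rule for membership uses no measured value, although earlier results of these data were known when it was set. Brain, liver and skin RNA had been sequenced from newborn C57BL/6 mice at postnatal day 0, with 2 heterozygous Jak1 knock-in mice (KI, labelled Jak1 KI +/-) and 5 wild-type mice (WT), which gave 7 libraries in each tissue and 21 in all. The KI allele replaces a conserved histidine of JAK1 with aspartate and carries a pair of silent changes beside it, and the KI mice descended from a mosaic founder male. The label reads brain, and which regions each sample held is not given in the sources used here. The labels number the libraries without stating a pairing or the sex, and libraries of 1 number and genotype in different tissues were taken as 1 mouse.

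The telencephalon, the front part of the embryonic brain, is divided into the pallium above, which forms the cerebral cortex and hippocampus, and the subpallium below, which forms the striatum and sends inhibitory neurons into the cortex. Transcription factors with regional expression mark these territories, so their RNA in a piece of brain depends on which territories the piece contains as well as on expression per cell. In bulk RNA, fewer cells of a type and less RNA per cell cannot be told apart. Emx1 and Emx2 are homeodomain factors of the pallial progenitor zone, Lhx2 is a LIM homeodomain factor that gives cortical progenitors their identity, Tbr1 is a T-box factor of deep-layer and early-born cortical neurons, and Neurod6 is a basic helix-loop-helix factor of maturing excitatory cortical neurons. Dlx1 and Dlx2 are neighbouring homeodomain genes needed for the inhibitory neurons of the subpallium. Bcl11b encodes the zinc-finger factor CTIP2, found both in cortical output neurons and in striatal neurons.

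In the NCBIM37 (mm9) genome, the build to which the authors aligned the reads, Emx1 lay at chr6:85137432-85154456 on the plus strand, Emx2 at chr19:59533180-59539847 on the plus strand and Neurod6 at chr6:55627812-55631257 on the minus strand. Tbr1 lay at chr2:61640987-61652171 and Lhx2 at chr2:38194801-38225253, both on the plus strand, and Bcl11b at chr12:109148613-109241812 on the minus strand. Dlx1 at chr2:71366170-71372038 on the plus strand and Dlx2 at chr2:71381466-71384811 on the minus strand were 9.427 kb apart. Counts covered the exons of each gene. The antisense transcript Dlx1as overlapped Dlx1 by 3344 bases in the RefSeq annotation of GRCm38.p6, and the reads of a library kit that keeps no strand cannot be told apart there.

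Tbr1, Dlx1 and Dlx2 had some of the most alike brain profiles among the 8 genes, and the 250 bases before their RefSeq start sites (GRCm38.p6) are shown because these 3 genes were low together in the same WT brains. They lie at chr2:61804203-61804452 (plus strand), chr2:71529195-71529444 (plus strand) and chr2:71546755-71547004 (minus strand), and capitals mark the letters TAATTA (a core bound by many homeodomain proteins), CAGCTG (an E-box) or CCAAT, on either strand.
Tbr1: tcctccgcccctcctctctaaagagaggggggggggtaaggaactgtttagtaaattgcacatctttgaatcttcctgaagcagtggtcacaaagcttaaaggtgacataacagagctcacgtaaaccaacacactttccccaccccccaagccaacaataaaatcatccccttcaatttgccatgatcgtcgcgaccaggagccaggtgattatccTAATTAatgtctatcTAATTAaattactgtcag
Dlx1: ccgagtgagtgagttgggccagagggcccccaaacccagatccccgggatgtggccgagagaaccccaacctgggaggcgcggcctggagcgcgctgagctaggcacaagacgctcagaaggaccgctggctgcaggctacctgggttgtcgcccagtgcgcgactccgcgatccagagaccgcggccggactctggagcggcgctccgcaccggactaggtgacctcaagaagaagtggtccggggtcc
Dlx2: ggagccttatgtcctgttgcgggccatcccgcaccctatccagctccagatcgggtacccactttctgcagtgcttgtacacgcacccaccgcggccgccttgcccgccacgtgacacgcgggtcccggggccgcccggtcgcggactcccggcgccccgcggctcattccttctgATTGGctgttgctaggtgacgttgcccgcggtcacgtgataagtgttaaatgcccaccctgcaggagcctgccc
The Tbr1 sequence held TAATTA 2 times and the Dlx2 sequence held CCAAT 1 time, read on the other strand. Dlx1 had none of the 3 strings in this window. Among 32851 mouse promoter windows of this length, 4.84% held TAATTA, 13% held CAGCTG and 33.85% held CCAAT, and the 8 genes matched 9 windows, of which 1, 0 and 3 held them. A match of letters is a description and not a binding site.

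The brain libraries held between 26549326 and 35606374 reads counted on genes. WT 5 stood apart from the other WT brains. Its root mean square distance from the median of the others over the genes tested was 1.03 on the log2 scale, against 0.44 to 0.55 for the other 4 WT brains. Relative to each gene's mean over all brain libraries, its levels declined with gene length (slope of -0.30). On that relative scale the slope was -0.04 to 0.06 in the other WT brains and 0.12 and 0.14 in the KI brains. These slopes balance one another by construction and are not independent. WT 2 and WT 3 stood apart in forebrain genes, as described below. The main counts and folds are given with and without some or all of these libraries. The SD of single genes is given without WT 5 only, and the median SD also without WT 2 and WT 3. The profile distances and the order of levels rest on all libraries.

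Levels are given as CPM, read counts relative to the library's total with edgeR's TMM scaling within a tissue, in the order WT 1 to WT 5 and then KI 1 and KI 2. Emx1 was at 0.272, 0.0324, 0.189, 2.44 and 16.9 CPM in the WT brains and at 2.26 and 4.79 CPM in the KI brains. The lowest value was 1 read in WT 2 (exact 95% Poisson interval of the count 0.0253 to 5.57), whereas WT 5 had 424 reads. Emx1 thus had under 10 reads in 3 WT brains, and the KI brains fell inside the WT range. Emx2 was at 2.75, 12.9, 10.8, 11.2 and 15.4 CPM in the WT brains and at 11.1 and 14.02 CPM in the KI brains. For this gene WT 1 alone was low, with 91 reads against 344 to 398 in the other WT brains, although Emx1 and Emx2 are related factors of the same zone. Lhx2 followed Emx2 more closely, at 16.9, 48.1, 26.1, 41.0 and 98.4 CPM in the WT brains and 53.2 and 57.3 CPM in the KI brains, again with WT 1 lowest.

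Tbr1, the deep-layer neuron factor, was at 11.9, 1.46, 0.660, 14.9 and 75.9 CPM in the WT brains and at 16.7 and 18.4 CPM in the KI brains. WT 3 held 21 reads of Tbr1 and WT 2 held 45 (exact 95% Poisson interval 32.8 to 60.2, which covers counting error only), against 392 to 1903 in the other WT brains. Neurod6, also a gene of cortical excitatory neurons, did not follow Tbr1. It was at 43.8, 20.4, 37.0, 35.4 and 167.5 CPM in the WT brains and 45.4 and 65.0 CPM in the KI brains, so that WT 3, lowest for Tbr1, lay beside WT 4 for Neurod6.

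The subpallial pair also showed wide gaps. Dlx1 was at 44.8, 6.39, 1.29, 42.1 and 77.1 CPM in the WT brains and 25.5 and 33.0 CPM in the KI brains. Dlx2 was at 19.7, 2.30, 0.314, 20.9 and 29.5 CPM in the WT brains and 18.4 and 18.8 CPM in the KI brains. For both genes WT 2 and WT 3 lay below every other brain, and WT 3 held 10 reads of Dlx2 (exact interval 4.80 to 18.4). Dlx1as, which overlaps Dlx1 in part, was counted separately. It was at 417, 29, 0, 465 and 595 reads in the WT brains and at 329 and 369 reads in the KI brains. These counts were low in the same libraries as those of Dlx1 and Dlx2. How reads in the overlap were assigned is not given in the sources used here.

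Bcl11b, the gene of both territories, varied least. It was at 53.6, 47.6, 49.3, 69.9 and 87.3 CPM in the WT brains and at 102.2 and 87.7 CPM in the KI brains. WT 2 and WT 3 were at the level of WT 1, and both KI brains lay above all 5 WT brains, KI 2 by a narrow margin over WT 5.

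**Figure D1:**
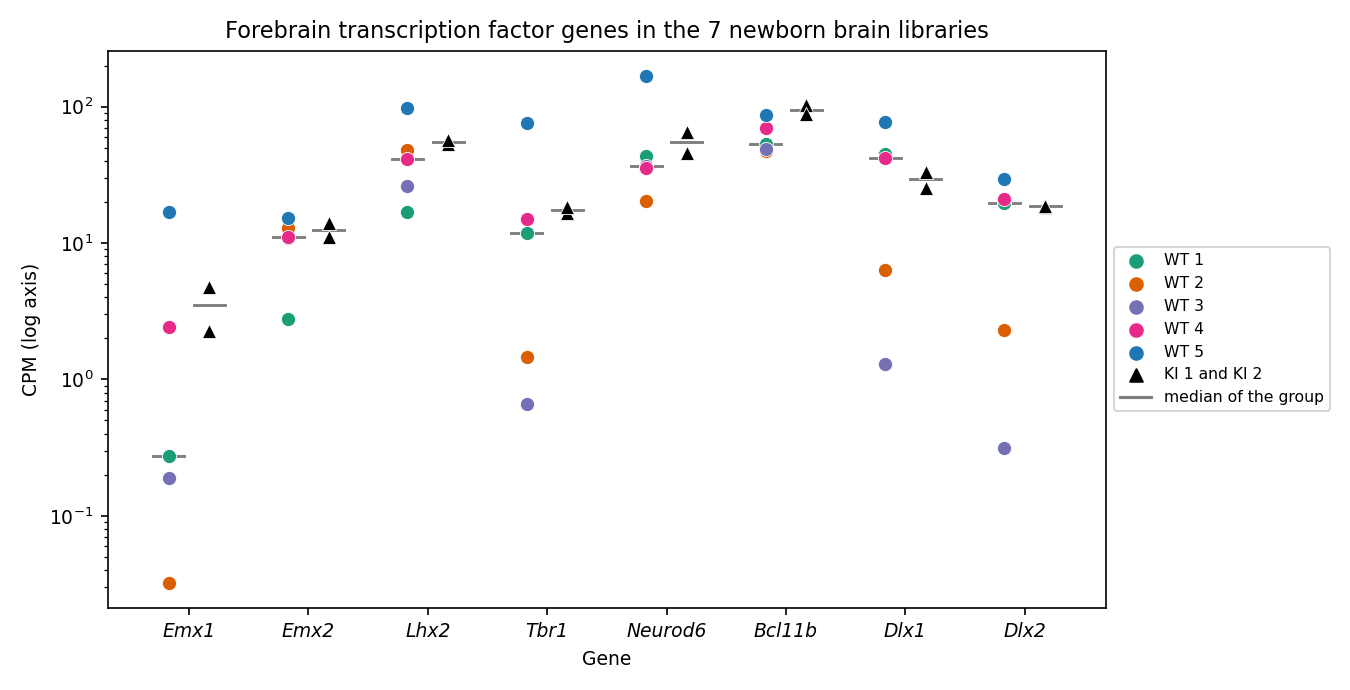
CPM (log axis) of the 8 genes in the 7 brain libraries, with coloured circles for WT 1 to WT 5, black triangles for the KI brains and grey lines for group medians. WT 5 is highest of the WT brains for every gene, WT 2 and WT 3 are far below the rest for Tbr1, Dlx1 and Dlx2, and WT 1 is lowest for Emx2 and Lhx2.

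The spread among the 5 WT brains was taken as the standard deviation (SD) of log2 CPM, with a prior count of 2. It was 3.00 for Emx1, 2.70 for Tbr1, 2.70 for Dlx2 and 2.44 for Dlx1, which placed these 4 genes above the 95th percentile of the 16322 genes tested in the brain. Neurod6 (1.13), Emx2 (0.98) and Lhx2 (0.96) lay between the 91.6th and the 94.2nd percentile. Bcl11b, at 0.37 and the 57.2nd percentile, was close to the median of all genes. Without WT 5 the SD of Neurod6 fell to 0.48 (the 84.9th percentile), that of Emx1 to 1.98, that of Tbr1 to 2.17, that of Lhx2 to 0.68 and that of Bcl11b to 0.25. The SDs of Emx2 (1.03, the 96.7th percentile), Dlx1 (2.42) and Dlx2 (2.78) changed little. The median SD was 1.78 over the 8 genes and 0.33 over all genes tested, and without WT 5 these medians were 1.51 and 0.18. Over the 8 genes the median SD was 1.88 without WT 2, 1.43 without WT 3 and 1.24 without both. No test is attached to these values, because the genes were picked as a group.

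WT 5 was the highest WT brain for all 8 genes, a position it held for 36.0% of all genes. The lowest WT brain was WT 1 for 2 of the 8 genes, WT 2 for 3 and WT 3 for 3. The low libraries thus differed between genes, and the genes fell into distinct profiles. Across the 7 brains, centred on each gene's mean, Dlx1 and Dlx2 differed by a root mean square of 0.42 on the log2 scale, Emx2 and Lhx2 by 0.45, Tbr1 and Dlx1 by 0.69, and Emx1 and Emx2 by 2.27. The pallial factor Tbr1 was therefore nearer in profile to the subpallial pair than to the pallial factor Emx2, from which it differed by 2.23.

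**Figure D2:**
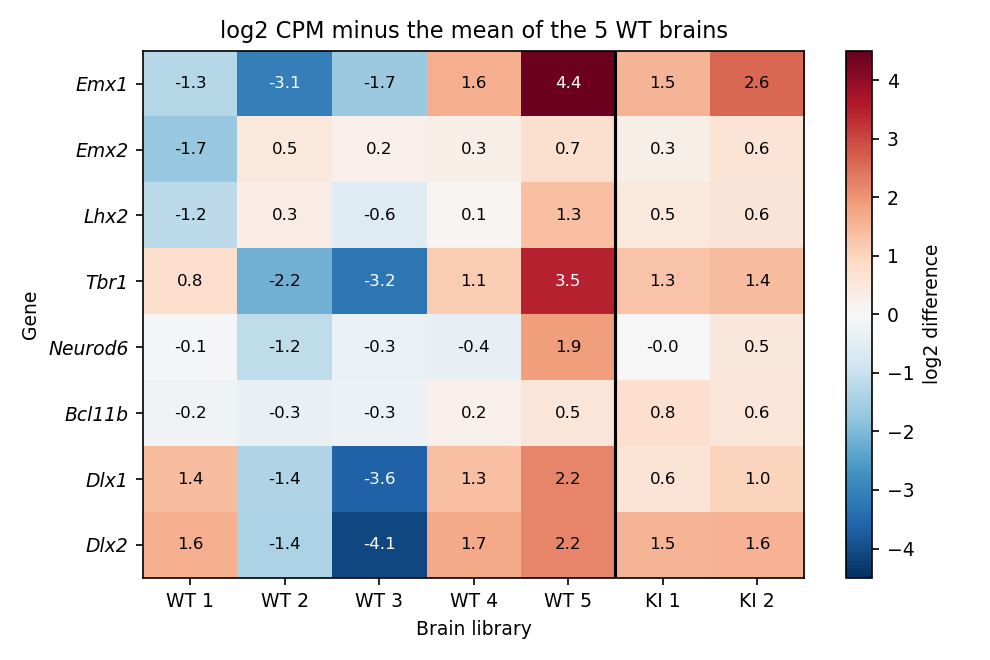
Difference of log2 CPM from the mean of the 5 WT brains (colour and printed value) for each gene and brain library, with the KI brains right of the black line. Dlx1, Dlx2 and Tbr1 share their negative values in WT 2 and WT 3, Emx2 and Lhx2 have theirs mainly in WT 1, and Bcl11b stays close to 0 in the WT brains.

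Ratios within a library, which need no scaling between libraries, were also taken. They restate differences of the same log2 CPM values and are no separate support for the grouping. The log2 ratio of Dlx1 to Dlx2 ranged from 1.01 to 1.84 over the WT brains (SD 0.31), and that of Emx2 to Lhx2 from -2.67 to -1.27 (SD 0.58). The ratio of Tbr1 to Neurod6 ranged from -5.68 in WT 3 to -1.14 in WT 5 (SD 1.95), and that of Emx1 to Emx2 from -7.10 in WT 2 to 0.14 in WT 5 (SD 2.82). The mean log2 CPM of the 5 pallial genes minus that of the Dlx pair was -2.29, 0.20, 2.67, -1.05 and 0.08 in WT 1 to WT 5 and -0.44 and -0.21 in KI 1 and KI 2. This balance spanned 4.96 log2 units over the WT brains, with WT 1 and WT 3 at its ends, and 2.37 when WT 2 and WT 3 were left out. The KI brains lay inside the WT range.

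Other regional factors were examined as lists. Lhx8, a factor of ventral forebrain neurons, was at 1 and 2 reads in WT 2 and WT 3 against 272 to 700 in the other 5 brains. Tbr1, Dlx1 and Dlx2 were likewise lowest in these 2 brains. Bcl11b was also lowest there, at 47.6 and 49.3 CPM, but close to the 53.6 CPM of WT 1, and Neurod6 was lowest in WT 2. Emx1 was low in these brains and also in WT 1. Lhx8 and Hoxb5 were singled out after their values were seen.

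Over 20 other subpallial factors, the mean log2 CPM was 2.77 in WT 2 and 1.93 in WT 3, below 4.08 to 4.26 in the other 5 brains. Over the 18 tested of 19 other pallial factors the 2 libraries were also lowest, at 4.33 and 4.71 against 4.98 to 5.88. WT 1, the brain low in Emx2 and Lhx2, had the lowest mean for 15 diencephalic factors, 2.59 against 2.72 to 3.80. WT 5, the WT brain with the highest level of every member, had the lowest mean for 26 mid- and hindbrain factors, 1.64 against 2.60 to 3.44. Among these Hoxb5, which marks the caudal hindbrain and spinal cord, was at 35 reads in WT 5 and 17 in WT 2 and at 1568 to 3267 in the other brains. The share of each list above the 95th percentile of spread was 9 of 20 subpallial, 2 of 18 tested pallial, 6 of 15 diencephalic and 12 of 26 mid- and hindbrain factors.

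**Figure D3:**
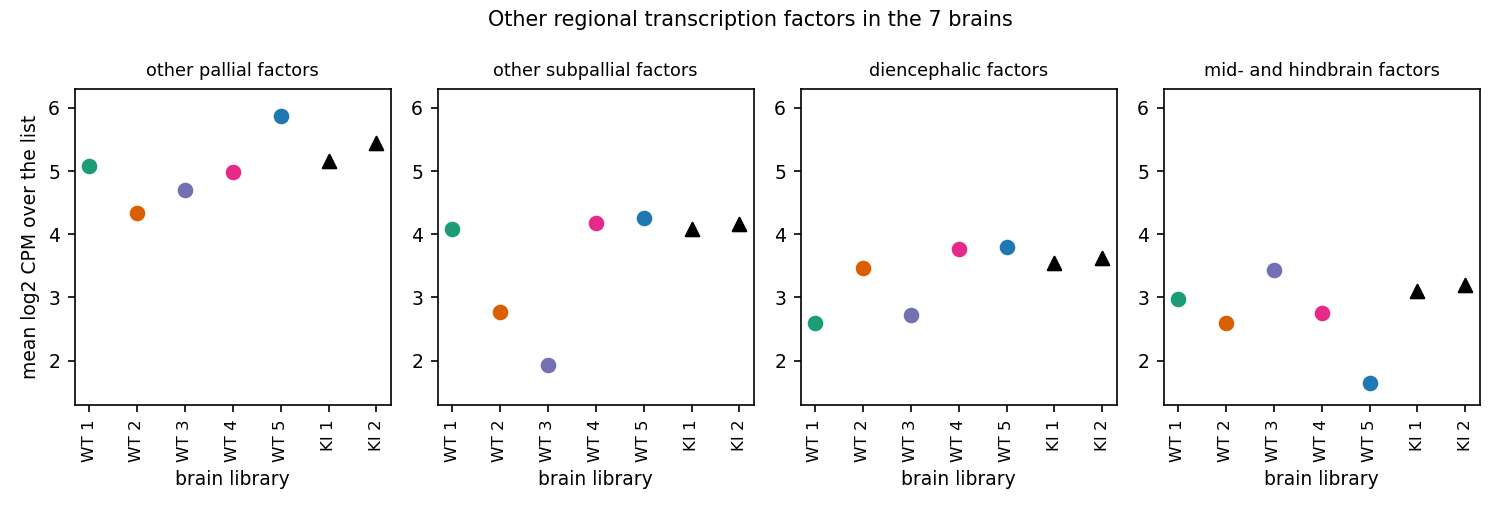
Mean log2 CPM over 4 lists of other regional factors (panels) in each brain library, with circles for WT and triangles for KI. WT 2 and WT 3 are lowest in the forebrain lists on the left, WT 1 in the diencephalic list and WT 5 in the mid- and hindbrain list.

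Markers of cell classes that should be present in any piece of brain moved less. None of 8 neuronal markers was above the 95th percentile of spread (median SD 0.21), and their summed level ranged from 10079 to 11599 CPM in the WT brains and from 8982 to 9898 CPM in the KI brains. Progenitor, oligodendrocyte-lineage, microglial and endothelial markers (8 each) also had none above that percentile. The summed progenitor markers were at 2397 and 2398 CPM in the KI brains, below the 3333 to 5360 CPM of the WT brains, with 3 of 8 past an unadjusted p under 0.05 and none called by edgeR. Of these Fabp7, a radial glia gene that makes up most of the sum, was at -1.20 log2 units, KI over WT (adjusted p = 0.255 by edgeR). The other 2 went opposite ways, Hes5 at -0.69 and Notch1 at 0.41. Over the whole progenitor list the fold change was positive for 5 of 8 genes, with a median of 0.09, so the lower sum does not describe most of them. Summed levels in WT and KI brains were 482 to 586 and 485 to 546 CPM for oligodendrocyte-lineage, 121 to 174 and 148 to 159 CPM for microglial, and 212 to 328 and 319 to 339 CPM for endothelial markers. Choroid plexus markers had 5 of 8 above it, with a sum of 63.0 to 2660 CPM in WT and 978 to 1070 CPM in KI, and meningeal fibroblast markers had 4 of 8, with 126 to 959 CPM in WT and 421 to 441 CPM in KI. No marker of these 7 lists was at 0 in every brain. Of 7 erythroid markers, 4 had 0 reads in every brain, and the sum of all 7 was 5.79 to 17.6 CPM in WT and 4.88 to 5.92 CPM in KI. The part of these cell classes, or of the tissue taken, in the levels of the 8 genes was not tested.

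By the smallest root mean square difference over the 7 brains, the genes most like Dlx1 were Dlx5 (0.17) and Dlx6 (0.24), and those most like Dlx2 were Lhx6 (0.35) and Dlx5 (0.36), all of them genes of the same inhibitory lineage. Neurod6 was nearest to Bhlhe22 (0.076), another basic helix-loop-helix factor of cortical excitatory neurons, and to Igfbpl1 (0.17). Tbr1 was nearest to Fezf2 (0.50), a factor of subcerebral projection neurons, and to 3110039M20Rik (0.65). Emx1 was nearest to Tfap2c (0.87) and Fezf2 (1.05). Emx2 was nearest to Sox14 (0.18) and Gata3 (0.23), which mark inhibitory neurons of the thalamus and midbrain rather than the cortex. Sox14 was, like Emx2, low in WT 1 alone, at 4.06 CPM against 14.1 to 21.1 CPM in the other WT brains. Lhx2 was nearest to Col7a1 (0.21) and Tap2 (0.22), and Bcl11b to Il17ra (0.11) and Ildr1 (0.15). These are descriptions over 7 libraries, in which WT 5 contributes to every likeness.

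Because a longer gene collects more reads, levels of different genes were compared per kilobase of exon (RPKM), by the median of the 5 WT brains. The order was Neurod6 17.2, Lhx2 13.2, Dlx1 7.80, Dlx2 6.90, Bcl11b 6.61, Emx2 4.16, Tbr1 2.16 and Emx1 0.125 RPKM. Neighbours in this order overlapped in their ranges over the WT brains in every case but Bcl11b (5.87 to 10.8 RPKM) and Emx2 (1.03 to 5.72 RPKM). In WT skin the order differed, with Lhx2 at 23.9, Bcl11b at 9.12, Emx2 at 3.80 and Dlx2 at 1.89 RPKM, and Dlx1, Emx1, Tbr1 and Neurod6 at or below 0.240 RPKM.

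Liver and skin served as the baseline outside the brain. In WT liver Emx2, Neurod6 and Tbr1 had 0 reads in all 5 libraries, and Emx1, Dlx1, Dlx2 and Bcl11b had at most 4 reads in any library. On a scale normalized over the tissues, the mean of the WT brains was at least 342-fold higher for Emx2, 1944-fold for Neurod6 and 667-fold for Tbr1 than the floor of 3 reads over the WT livers. Without WT 5 in the brain mean these bounds were 305-fold, 1102-fold and 232-fold. Lhx2 was the only one of the 8 present in liver, where it is known from hepatic stellate cells, at 6.33, 4.77, 7.13, 9.26 and 3.37 CPM in WT 1 to WT 5. Emx1 did not pass the filter on low counts, and all 7 other genes were called higher in WT brain than in WT liver (edgeR quasi-likelihood test, adjusted p under 0.1), where 44.6% of all genes tested were called higher. Lhx2 was 2.14 log2 units higher in brain (SE 0.429, adjusted p = 0.000514 by edgeR), and 1.53 without WT 5 (adjusted p = 0.00121). Over all alternatives its adjusted p by edgeR or DESeq2 ran from 3.82e-07 to 0.00941.

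In skin the 8 genes divided. Neurod6 had 2 reads in WT 5 and 0 in the other WT skins, Emx1 had 2 to 5 reads and Tbr1 had 1 to 18. Emx2 was at 10.9, 13.2, 10.2, 8.22 and 9.73 CPM in WT 1 to WT 5, and Bcl11b at 89.9, 55.8, 74.0, 81.1 and 66.0 CPM. Lhx2, a factor of hair follicle stem cells, was at 96.5, 28.2, 74.5, 148.6 and 40.1 CPM in the WT skins. The study's methods report lower RNA integrity for the skin samples than for the others. In comparisons with skin, tissue and RNA quality cannot be told apart. Of 7 genes tested, 3 were called higher in WT brain than in WT skin, where 39.6% of all genes were. These were Neurod6, Tbr1 (log2 difference 6.21, SE 1.31, adjusted p = 0.00105 by edgeR) and Dlx1 (4.82, SE 0.979, adjusted p = 0.000792 by edgeR). Without WT 5 the difference was 4.97 for Tbr1 and 4.03 for Dlx1, and without WT 2 it was 7.03 and 5.34, all of them called.

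The other 4 genes had no call between brain and skin. Emx2 differed by -0.08 (SE 0.360), Lhx2 by -0.86 (SE 0.513), Dlx2 by 1.27 (SE 0.846) and Bcl11b by -0.36 (SE 0.185) log2 units, brain minus skin. Their adjusted p by edgeR was 0.855, 0.149, 0.195 and 0.101. With the mouse as a replicate block, Bcl11b was called lower in brain (adjusted p = 0.0742 by edgeR), a call that 39% of all genes had without the block. Without WT 5, Bcl11b (-0.55, adjusted p = 0.0138 by edgeR) and Lhx2 (-1.49, adjusted p = 0.0187) were called lower in brain, and without WT 2 Lhx2 was as well (-1.11, adjusted p = 0.0948). Dlx2 was called higher in brain without WT 3 (1.43, adjusted p = 0.0752 by edgeR) and without both WT 2 and WT 3 (1.75, adjusted p = 0.0107). Over all alternatives the adjusted p by edgeR or DESeq2 ran from 0.0138 to 0.355 for Bcl11b, from 0.0187 to 0.512 for Lhx2 and from 0.0107 to 0.730 for Dlx2.

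**Figure D4:**
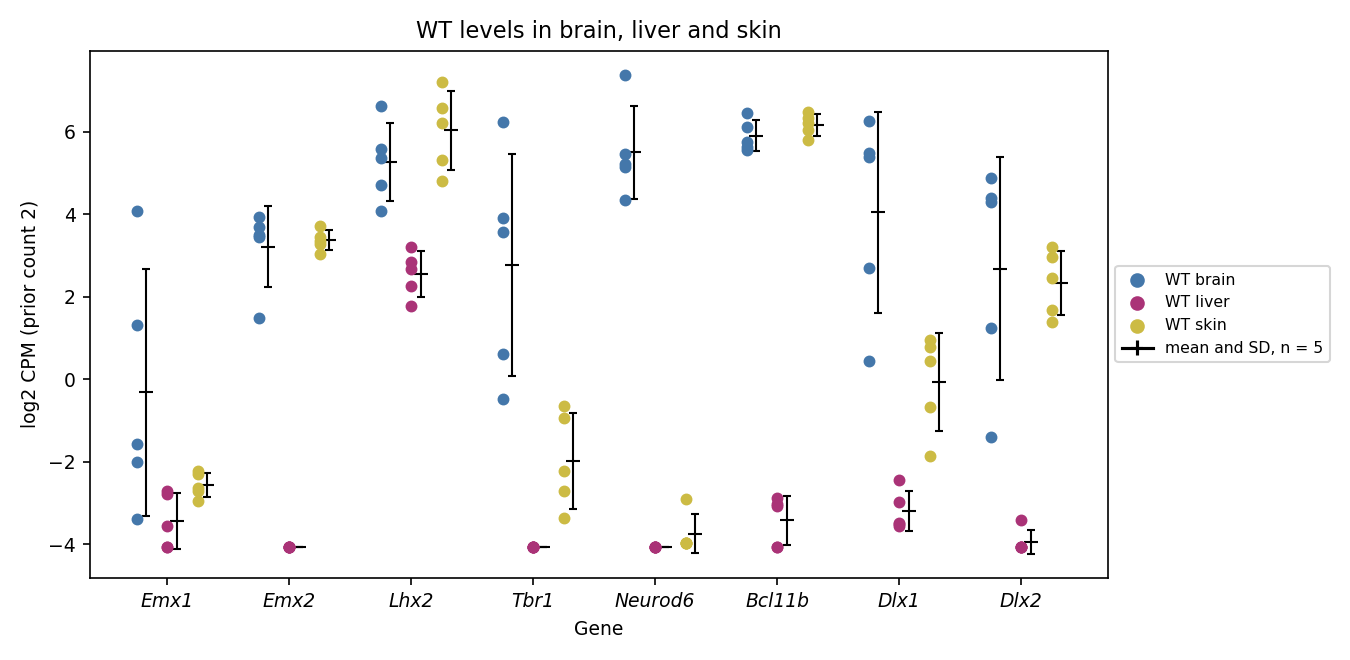
Level (log2 CPM, prior count 2) of the 8 genes in the 5 WT libraries of brain, liver and skin, each scaled within its tissue, with bars for mean and SD. Emx2, Lhx2 and Bcl11b overlap between brain and skin, Neurod6 does not, and in liver only Lhx2 lies above the floor.

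The spread of the members in skin was smaller for most of them than in brain. The SD of log2 CPM over the WT skins was 0.25 for Emx2 and 0.27 for Bcl11b, beside 0.26 for the median gene. It was 0.78 for Dlx2, 0.96 for Lhx2, 1.18 for Dlx1 and 1.16 for Tbr1, against 2.70, 0.96, 2.44 and 2.70 in the WT brains. Among all genes tested in skin, Dlx2 lay at the 87.9th percentile of spread and Lhx2 at the 92.0th. Dlx1 lay at the 95.1st and Tbr1, which had few reads there, at the 94.9th. Relative to other genes, a wide spread of these genes was thus seen in skin as well.

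KI and WT brains were compared to find which genes the KI allele altered. None of the 8 genes was called (edgeR, adjusted p under 0.1), and none of the 16322 genes tested was either (0%). At an unadjusted p under 0.05, 1 of the 8 genes passed, against 10.6% of all genes (2.8% higher and 7.81% lower). The Wald test of DESeq2 called 514 of 15116 genes (3.4%), with none of the 8 among them. The median log2 fold change, KI over WT, was 0.05 over the 8 genes and -0.02 over all genes.

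The gene that passed the unadjusted level was Bcl11b, at 94.9 ± 10.3 CPM in KI (SD, n = 2) and 61.5 ± 16.9 CPM in WT (SD, n = 5). Its log2 fold change was 0.63 (SE 0.243, adjusted p = 0.425 by edgeR). Both KI brains lay above all WT brains for Bcl11b alone of the 8, an order found for 11.2% of all genes. Without WT 5 the difference was called (0.80, adjusted p = 0.0366 by edgeR), in a fit that called 10.5% of all genes, 672 higher and 1026 lower. Over all alternatives its adjusted p by edgeR or DESeq2 ran from 0.00433 to 0.9998. The lowest came from the fit with the replicate number as a block, in which WT 3 to WT 5 do not enter the KI contrast. With the gene-length offset the log2 fold change of Bcl11b was 0.41 (adjusted p = 0.784 by edgeR). Without WT 2 and WT 3 it was 0.45 (adjusted p = 0.572 by edgeR), and no gene was called.

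For the other 7 genes both KI brains lay inside the WT range. The log2 fold change was 0.24 (SE 0.521) for Emx2, 0.26 (SE 0.565) for Lhx2 and 0.35 (SE 1.17) for Dlx2. It was -0.16 (SE 1.72) for Emx1, -0.25 (SE 1.42) for Tbr1, -0.23 (SE 1.14) for Dlx1 and -0.14 (SE 0.737) for Neurod6. Adjusted p by edgeR was between 0.894 and 0.982. The standard errors of Emx1, Tbr1, Dlx1 and Dlx2 exceeded 1 log2 unit. Without WT 5 the direction turned for Emx1 (2.26), Tbr1 (1.29), Neurod6 (0.71) and Dlx1 (0.32), with no call. It also turned without KI 1 for Emx1 (0.30) and Neurod6 (0.12). Lhx2, Dlx2 and Emx2 were at 0.76, 0.80 and 0.44 without WT 5, and Emx2 and Lhx2 at 0.01 and 0.06 without WT 1, the brain lowest in both. Without WT 2 and WT 3 the direction turned for Dlx2 (-0.32), which was at 0.04 without WT 3 alone and at 0.09 without WT 2 alone.

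In the lists of other regional factors no gene was called between KI and WT brains. The fold change was positive for 9 of 18 pallial, 14 of 20 subpallial, 9 of 15 diencephalic and 16 of 26 mid- and hindbrain factors tested. None of them passed the unadjusted level. The smallest p in each list belonged to Cux2 (0.48, adjusted p = 0.597 by edgeR) and Cux1 (0.23), factors of upper cortical layers, to Zfp503 (0.33, adjusted p = 0.571) and Gsx1 (0.63), to Irx1 (0.36, adjusted p = 0.707) and Barhl2 (0.33), and to Pou4f1 (0.44, adjusted p = 0.655) and Barhl1 (0.31).

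**Figure D5:**
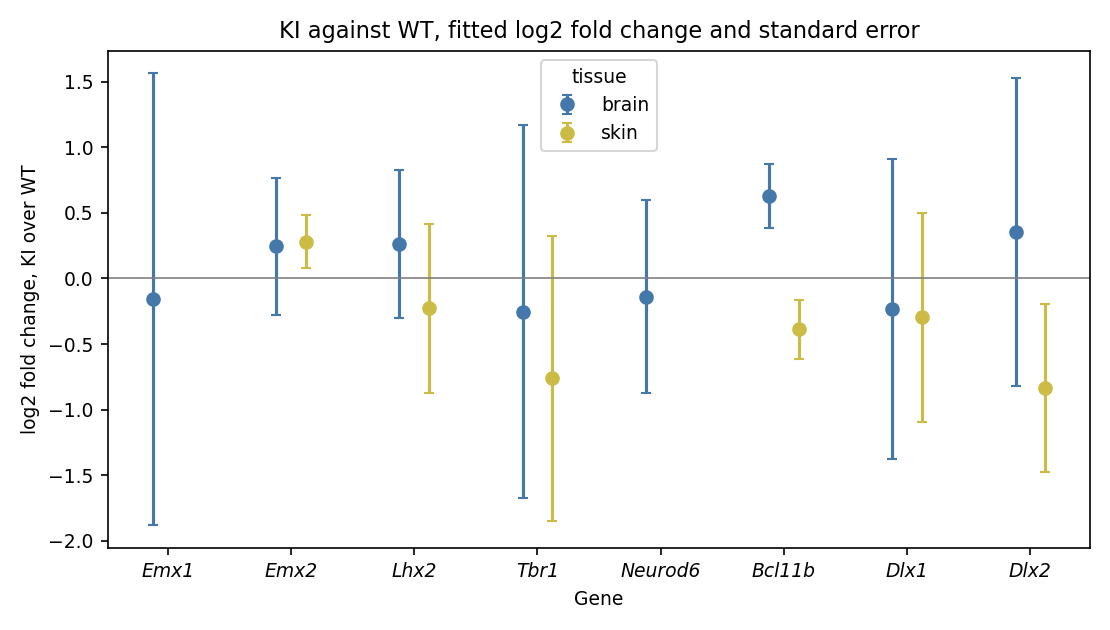
Fitted log2 fold change, KI over WT (points), with its standard error (bars), for the members tested in brain (blue) and skin (yellow). The brain bars cross 0 for every gene except Bcl11b, which is at 0.63 in brain and -0.39 in skin, and they are longest for Emx1, Tbr1, Dlx2 and Dlx1.

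In skin 6 of the 8 genes were tested and none was called by edgeR, where 0.0247% of all genes were called. None passed an unadjusted p under 0.05 either, against 4.57% of all genes. The log2 fold changes were 0.28 (SE 0.204) for Emx2, -0.39 (SE 0.224) for Bcl11b, -0.23 (SE 0.644) for Lhx2, -0.29 (SE 0.796) for Dlx1, -0.83 (SE 0.638) for Dlx2 and -0.76 (SE 1.09) for Tbr1. Each adjusted p was 0.999 by edgeR. With 1 mouse left out, Dlx2 ranged from -1.88 (without KI 1) to -0.23 (without KI 2) and Tbr1 from -1.43 (without KI 2) to -0.26 (without KI 1), with no call. The KI skins were at 67.8 and 44.2 CPM of Bcl11b, the second below every WT skin, and at 4.79 and 1.47 CPM of Dlx2, also with the second below every WT skin. In liver Lhx2, the only gene tested, was at 4.45 and 4.92 CPM in KI, inside the WT range (log2 fold change -0.40, SE 0.342, adjusted p = 0.592 by edgeR), where 5.57% of all genes were called.

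The difference between the KI effects in brain and skin was tested with an interaction term over the 14 libraries of both tissues, without the mouse as a term. For Bcl11b it was 1.09 log2 units (SE 0.348, unadjusted p = 0.00772, adjusted p = 0.844 by edgeR), and for Lhx2 0.57 (SE 0.932, adjusted p = 0.943). No gene of 17504 was called (0%). Between brain and liver the difference was 0.66 for Lhx2 (SE 0.722, adjusted p = 0.707 by edgeR), where 2.65% of all genes were called.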

How the data were processed

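Total RNA of newborn brain, liver and skin was sequenced, 1 library per mouse and tissue. Per the labels and the study's methods, the authors aligned trimmed paired reads to mm9 with TopHat2 and counted them with HTSeq, and they deposited raw counts per gene symbol without normalization. The gene annotation behind the counts is not given in the sources used here. Summary lines for unassigned reads, 30.4% to 38.1% of all counts, were left out, and 80.5% to 87.6% of uniquely aligned reads fell on genes. The labels do not state separate cultures or litters, and p-values measure the spread between these samples.

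Counts were filtered with filterByExpr, scaled by TMM within each comparison and fitted in R 4.3.3 with edgeR 4.0.16, whose quasi-likelihood F-test gave the p-values. A Benjamini-Hochberg adjusted p under 0.1 over all genes tested was called. KI and WT were compared within each tissue (2 against 5), WT brain with WT liver and WT skin (5 against 5), and the KI effects between tissues by an interaction term. The standard error (SE) of a log2 fold change was its size divided by the square root of F. Log2 CPM used a prior count of 2. Gene positions and exon lengths came from GENCODE on NCBIM37, where 84.6% of symbols had a length, and promoters from RefSeq. An item withheld for evaluation is not reported here. The members and lists were chosen with earlier results of these data known. The 8 members were all named, with the 2 genes of smallest root mean square difference from each and, in lists where no gene was called, the 2 of smallest p.

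WT libraries of 1 number in different tissues were taken as 1 mouse from the labels, and their deviations from the tissue means correlated across genes with r of 0.03 to 0.13 (brain and liver) and 0.01 to 0.18 (brain and skin). The alternatives were the size factors and the Wald test of DESeq2 1.42.0, no filter beyond 1 count, an adjusted p of 0.05, a prior count of 0.5, a fit of all 21 libraries, a gene-length offset, the replicate number as a block and each mouse left out. Leaving out both WT 2 and WT 3 was added after seeing the data. The edgeR step was tested on simulated counts. Figures were drawn with Python 3.11.15 and matplotlib 3.10.9.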

Additional observations from a re-analysis of the deposited data

Results flagged for a closer look

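Dixon's test at the 95% level was run on the 5 WT libraries of each tissue, in 16 groups of values. It marked 3 of them, all in brain and all for WT 5 as the highest library. These 3 groups were tested as CPM, not as log2 CPM. The nominal rate of 1 chance flag in 20 groups assumes normally distributed values, which was not checked, so no conclusion rests on it. On the log2 scale, the lowest WT brain, the next below WT 5 and WT 5 were at -3.40, 1.32 and 4.09 for Emx1. They were at -0.47, 3.90 and 6.25 for Tbr1 and at 4.36, 5.45 and 7.39 for Neurod6. The 3 flagged values come from 1 library and are not independent. Neurod6 was at 167.5 CPM in WT 5, and the next WT brain was at 43.8 CPM. Tbr1 was at 75.9 CPM in WT 5 and at 14.9 CPM in the next WT brain. Emx1 was at 16.9 CPM in WT 5 and at 2.44 CPM in the next WT brain. The same library had the steepest decline with gene length, relative to the mean over the brain libraries, and the lowest mid- and hindbrain factors. The part of either in these 3 values was not tested.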

How the results depend on the processing

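With 2 KI brains and WT brains that differed widely in these genes, fold changes of Emx1, Tbr1, Dlx1 and Dlx2 in the brain have standard errors above 1 log2 unit, and counts of 10 or fewer in single libraries limit Emx1 and Dlx2 further. No cause of the changes below was tested. The count of genes called between KI and WT brains was 0. It became 514 with the Wald test of DESeq2 and 614 in a fit of all 21 libraries, 3.4% of the genes tested in each. With 1 WT mouse left out it was 0 to 1698, the highest without WT 5. Of the 8 members, 0 to 1 were called with 1 mouse left out, Bcl11b without WT 5. With the gene-length offset the KI fold change in brain turned to 0.19 for Emx1 and 0.13 for Neurod6, and with both WT 2 and WT 3 left out to -0.32 for Dlx2. For Bcl11b it was 0.41 with the offset and 0.45 without WT 2 and WT 3. With 1 mouse left out, the KI fold change in brain ranged from -0.80 to 2.26 for Emx1, from -0.42 to 0.71 for Neurod6, from -0.57 to 1.29 for Tbr1, from -0.54 to 0.32 for Dlx1 and from 0.53 to 0.80 for Bcl11b. In skin it ranged from -1.05 to 0.31 for Lhx2, from -0.95 to 0.16 for Dlx1, from -1.88 to -0.23 for Dlx2 and from -1.43 to -0.26 for Tbr1, which passed the filter in 5 of the 7 fits. The difference of KI effects between brain and skin ranged from -0.012 to 1.48 for Lhx2, and Emx2 in WT brain against WT skin from -0.26 to 0.18. The range of the pallial minus subpallial balance over the WT brains was 2.49 to 4.96 with 1 WT mouse left out, lowest without WT 3, and 2.37 without WT 2 and WT 3.

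KI and WT libraries share replicate numbers, but same-numbered libraries deviated from their group means with correlations across genes of 0.02 and -0.10 in brain, -0.03 and -0.09 in liver and 0.20 and 0.04 in skin, so the numbers are not shown to pair the mice. With the number as a replicate block, 2165 genes were called in brain (13.3% of all genes tested). They included 2 members, Bcl11b (0.91, adjusted p = 0.00433 by edgeR) and Emx1 (4.41, adjusted p = 0.0277). Numbers 3, 4 and 5 occur only in WT, so WT 3, WT 4 and WT 5 do not enter the KI contrast of a fit with this block. It rests on the KI and WT libraries of numbers 1 and 2, which leaves little to estimate the spread from. The block turned the brain fold change to 0.85 for Neurod6, 1.92 for Tbr1 and 0.71 for Dlx1 and the skin fold change to 0.18 for Lhx2. Other results kept their direction and their side of the threshold under the alternatives run, apart from those given in the report for brain against skin.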
